A study of Homo sapiens with 6 samples.

Results

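The transcripts described here encode the PEA3 subfamily of ETS transcription factors (ETV1, ETV4 and ETV5) and the Sprouty and SPRED proteins (SPRY1, SPRY2, SPRY4, SPRED1, SPRED2 and SPRED3), which inhibit signalling from receptor tyrosine kinases to the kinase ERK. They were taken by gene symbol from the deposited table, where each of the 9 symbols matched 1 of 58051 genes. RNA was sequenced from HEK293T, a line of human embryonic kidney cells that carries the SV40 large T antigen. Both groups were transiently transfected and harvested after 48 hours: the control group received the empty plasmid pcDNA3.1- (3 libraries) and the other group the plasmid pcDNA3.1-ppk1 (3 libraries). The ppk1 gene encodes a bacterial kinase that links phosphate into long polyphosphate chains, and the series asks how human cells respond to such chains inside the cell. The libraries are lettered B, C and D in each group, and a control and a ppk1 library of the same letter are matched biological replicates, per the series' design text. The protocol lists a range of plasmid amounts, 2 transfection reagents and also a tagged ppk1 plasmid, without saying which was used for a given library. Transient transfection reaches only some of the cells, so each library mixes cells with and without the plasmid, and a smaller share of responding cells cannot be told apart from a smaller response per cell.

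The PEA3 factors bind DNA through an ETS domain and are known as transcriptional readouts of the FGF receptor, RAS and ERK cascade, where ERK activity relieves their repression by the protein Capicua (CIC). The Sprouty and SPRED genes are induced by the same cascade and act back on it. Sprouty proteins interfere with the steps between the receptor and RAF, and SPRED proteins bring the RAS inactivator neurofibromin (NF1) to the membrane. Transcripts of this set are therefore often read together, as factors downstream of ERK and as its negative feedback.

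Library totals ran from 40851783 to 67122986 counts, with more counts for ppk1 than for the control at every letter. On the first principal component of log2 CPM (CPM, counts scaled to the size of the library), which held 41.1% of the variance, the ppk1 libraries lay apart from the controls, with ppk1 library C and control library D farthest out. The table lists human genes, so the ppk1 transcript itself was not measured and the labels could not be checked by it. HEK293T has no agreed marker set. Of 6 genes reported in these cells (VIM, KRT8, KRT18, CDH2, NEFM and PAX2), control means ran from 3.0 CPM for PAX2 to 508 CPM for VIM, and KRT18 was the 1 that changed (log2 fold change 0.28, edgeR adjusted p = 0.0113, but 0.0629 without the block and 0.504 without replicate C). Of 8 markers of other cell types (PTPRC, CD3E, PECAM1, CDH5, COL1A2, DCN, ALB and INS), 7 had too few counts to be tested, with INS at 0 in every library. ALB was at 0.632 ± 0.177 CPM in the controls and lower, at 0.237 ± 0.0299 CPM, with ppk1 (mean ± SD over 3 libraries each; log2 -1.37, edgeR adjusted p = 0.00261). The summed level of all 8 markers ran from 0.609 to 1.17 CPM in the controls and from 0.419 to 0.526 CPM with ppk1, and its part in the results below was not tested.

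Promoter sequence from RefSeq (GRCh38.p14; 250 bases before to 50 after a transcript start) was searched for 7 of the 9 genes, in 17 windows, and the promoters of ETV4 and ETV5 were not analysed here. The windows were searched on both strands for the CIC octamers TGAATGAA and TGAATGGA, because CIC is a known repressor of the PEA3 genes. A further reason was that its own transcript was called, higher with ppk1 (log2 fold change 0.39, edgeR adjusted p = 9.2e-04). That call was lost without the block (0.132) and without replicate C (0.0977). Of the 17 windows, 2 held an octamer, 1 of ETV1 and 1 of SPRED3, while 2.63% of all 35116 windows in the table held either. The 30 bases around each octamer are shown to place it, 5′ to 3′ on the gene's strand, with the octamer in capitals. In ETV1 the ETS letters CCGGAA, found in 17.2% of all windows, are capitals too. Positions are counted back from the transcript start.

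ETV1 (chr7:13991532-13991561, minus strand, bases -136 to -107): CCGGAAttttgTGAATGGAgacgaaaggtg

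SPRED3 (chr19:38389582-38389611, plus strand, bases -209 to -180): agcagccttgatttttgTGAATGAAatgct

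The octamers do not overlap the CCGGAA letters. CCGGAA was also in 2 further windows of ETV1, which overlap each other, and in 1 window each of SPRY1 and SPRY2. Windows of the same length for SPRY1, SPRY2, SPRY4, SPRED1 and SPRED2 held neither octamer. Some of these windows lie largely in annotated exons. All 250 bases before the start were exonic in the only SPRED1 window and in 1 SPRY1 window. In the only SPRY4 window it was 170 bases. The windows with an octamer had 126 such bases in SPRED3 and 0 in ETV1. For SPRED1, no sequence outside annotated exons was thus searched before the start. In the test described below, ETV1 and SPRED3 were not called, while SPRY4 and SPRED1 were. ETV4 and ETV5 were called too, but their promoters were not searched. Whether octamers go with the calls was therefore not tested. The longer ETS form CCGGAAGT, in 4.14% of all windows, and the letters TGACGTCA, in 1.85%, were in none of the 17, whereas AGGAAGT (8.24% of all windows) was in 1 window of SPRED3 and TGANTCA (7.71%) in 1 window each of SPRED2 and SPRED3. These matches are descriptions of letters and not of bound sites.

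Of the 9 transcripts, 4 were higher in the ppk1 libraries and 0 were lower by edgeR's quasi-likelihood test with the replicate letter as a block and a Benjamini-Hochberg adjusted p below 0.05 over all 19574 tested genes. They were ETV4, ETV5, SPRY4 and SPRED1. All 9 passed the filter on low counts. Over all tested genes, 4.04% were called higher and 5.04% lower. The median log2 fold change of the 9 was 0.28, against 0.01 over all tested genes. The CPM values of the groups did not overlap, with all ppk1 libraries above all controls, for 5 of the 9, compared with 13% of all tested genes. All ppk1 libraries lay below all controls for 0 of the 9 and for 12.6% of all tested genes. The level was higher with ppk1 in all 3 pairs for 6 of the 9, and for 22.6% of all tested genes. The 9 genes were chosen with earlier results of these data known. The shares over all tested genes are therefore given for scale and are not a test of the set.

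Under the alternatives 3 or 4 of the 9 were called, all higher. It was 4 with RLE scaling, where 3.54% of all tested genes were called higher, with upper-quartile scaling (2.16%), without the filter (1.95%), with limma voom (3.81%) and with robust dispersion (4.03%). It was 3 without the block (0.455% of all tested genes), among genes averaging 50 counts or more (3.84%), in DESeq2 (2.1%), and without replicate B (6.5%), C (0.415%) or D (3.37%).

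**Figure D1:**
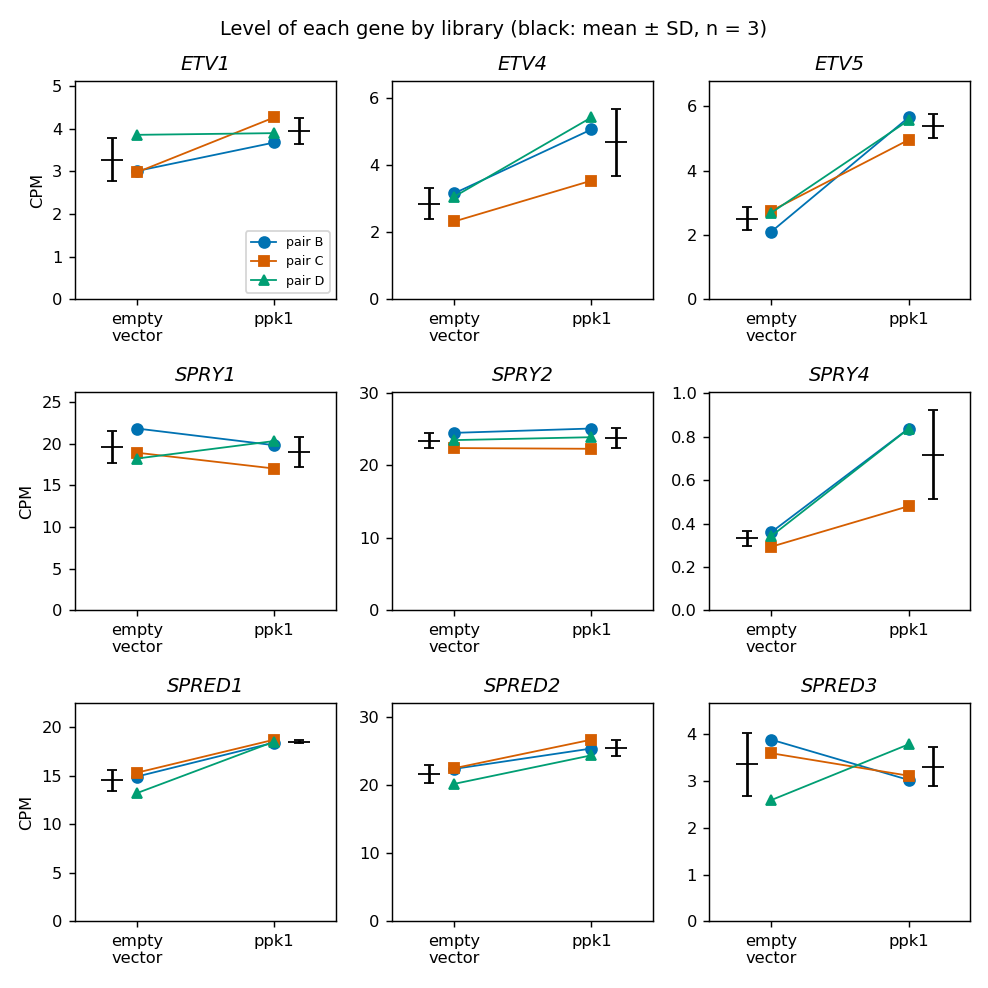
Level of each transcript in CPM (y axis, from 0) in the empty vector and ppk1 libraries (x axis). Points joined by a line are libraries of the same letter, and black marks give the mean ± SD of 3 libraries. All ppk1 points lie above all control points for ETV4, ETV5, SPRY4, SPRED1 and SPRED2, and the groups overlap for ETV1, SPRY1, SPRY2 and SPRED3.

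ETV5 (ENSG00000244405, chromosome 3), a PEA3 factor also known as ERM, had 111, 122 and 110 counts in control libraries B, C and D and 378, 238 and 233 in the ppk1 libraries. Scaled to library size, these were 2.1, 2.75 and 2.69 CPM against 5.66, 4.96 and 5.57 CPM. The lowest ppk1 library, C, was well above the highest control library, which was also C. The group means were 2.51 ± 0.36 and 5.4 ± 0.378 CPM (mean ± SD, n = 3 libraries per group), and the fold change was 2.17 (log2 1.11, SE 0.13, 95% interval 0.85 to 1.38, edgeR adjusted p = 3.1e-08). Pair B gave a log2 change of 1.41, pair C of 0.84 and pair D of 1.04. ETV5 lay at the 99.8th percentile of log2 fold changes over all tested genes. It shares 2.83% of its exonic bases with DGKG on the same strand in GENCODE release 29. DGKG, which encodes a diacylglycerol kinase, had between 3 and 14 counts in every library. The handling of reads from the shared bases is not given, and their part in the ETV5 counts was not tested.

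ETV4 (ENSG00000175832, chromosome 17), the factor for which the subfamily is named, had 3.16, 2.32 and 3.06 CPM in control libraries B, C and D and 5.07, 3.54 and 5.43 CPM in the ppk1 libraries. Libraries of letter C were the lowest of both groups, and the lowest ppk1 value exceeded the highest control value by less than the SD of either group. The means were 2.85 ± 0.457 and 4.68 ± 1.0 CPM (n = 3 libraries per group). The rise was 1.63-fold (log2 0.71, SE 0.13, 95% interval 0.45 to 0.97, edgeR adjusted p = 1.4e-04), with pair values of 0.68, 0.6 and 0.82 on the log2 scale. The adjusted p was 0.0497 without the block. ETV4 shares 1.89% of its exonic bases with DHX8 on the opposite strand. DHX8, an RNA helicase gene, was at 99.1 ± 3.36 and 103 ± 7.03 CPM, a log2 fold change of 0.06 (edgeR adjusted p = 0.67).

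ETV1 (ENSG00000006468, chromosome 7), also known as ER81, did not pass the test. Its values were 3.01, 2.98 and 3.86 CPM in control libraries B, C and D and 3.68, 4.27 and 3.9 CPM with ppk1. Control library D lay among the ppk1 libraries, so the groups overlapped. The log2 fold change was 0.28 (SE 0.13, 95% interval 0.01 to 0.54), with an unadjusted p of 0.0431 and an adjusted p of 0.194 by edgeR. The pair values were 0.29, 0.52 and 0.01, so pair D showed almost no difference. The interval of ETV1 lay below that of ETV5, but the difference between the genes was not tested.

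Per kilobase of exon, which allows levels of different genes to be compared, the PEA3 transcripts together rose from 1.56 ± 0.143 to 2.64 ± 0.313 CPM per kilobase (mean ± SD, n = 3; a summed level, with no test). ETV4 held the largest part of that sum in both groups, 50.4 ± 5.74% in the controls and 48.8 ± 5.02% with ppk1. This order depends on the length used, which counts all annotated exons (3607 bases for ETV4, 9616 for ETV1). Before division by length, the control mean of ETV1 (3.28 CPM) was above that of ETV4 (2.85 CPM). ETV5 went from 27.9 ± 4.99% (at most 33.2%) to 35.4 ± 2.01% (at least 33.5%), and ETV1 from 21.8 ± 1.64% to 15.8 ± 3.17%. The shares of ETV1 (at least 20.2% in the controls, at most 19.5% with ppk1) and ETV5 did not overlap between the groups, by small margins, whereas those of ETV4 did. A share also falls when the other transcripts rise more. The level of ETV1 itself was 0.341 CPM per kilobase in the controls and 0.411 with ppk1.

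SPRY4 (ENSG00000187678, chromosome 5) was the Sprouty transcript that rose, and it was by far the least abundant of the 9. It had 19, 13 and 14 counts in control libraries B, C and D and 56, 23 and 35 in the ppk1 libraries. The exact 95% Poisson intervals, which cover counting error only, ran from 6.92 to 29.7 counts over the controls and from 14.6 to 72.7 over the ppk1 libraries. In CPM the values were 0.36, 0.293 and 0.342 against 0.838, 0.48 and 0.837, so ppk1 library C was lower than B and D but still above every control. The means were 0.332 ± 0.0345 and 0.718 ± 0.207 CPM (n = 3 libraries per group), a 2.14-fold rise (log2 1.1, SE 0.29, 95% interval 0.53 to 1.67, edgeR adjusted p = 0.00834). In pair D, whose 2 libraries were close in depth, the log2 change was 1.2, while pair B gave 1.13 and pair C 0.64. The call rests on few reads: the edgeR adjusted p was 0.0625 without the block, 0.0582 without replicate B and 0.0504 without replicate D, and DESeq2 gave no adjusted p for it.

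The abundant Sprouty transcripts did not pass the test. SPRY2 (ENSG00000136158, chromosome 13) was at 24.5, 22.4 and 23.5 CPM in control libraries B, C and D and at 25.1, 22.3 and 23.9 CPM with ppk1. Every control value lay within the range of the ppk1 values. Its log2 fold change was 0.02 (SE 0.08), and the 95% interval of -0.14 to 0.18 corresponds to folds from 0.908 to 1.13. SPRY1 (ENSG00000164056, chromosome 4) was at 21.8, 18.9 and 18.2 CPM in the controls and at 19.8, 17 and 20.3 CPM with ppk1. It was lower with ppk1 in pairs B and C and higher in pair D. The log2 fold change was -0.05 (SE 0.08, 95% interval -0.22 to 0.12, folds from 0.859 to 1.09). The edgeR adjusted p was 0.912 for SPRY2 and 0.778 for SPRY1. For both transcripts the interval leaves out a rise of the size seen for SPRY4.

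The summed level of the 3 was 12.7 ± 0.776 CPM per kilobase in the controls and 12.7 ± 0.902 with ppk1 (mean ± SD, n = 3). SPRY4 contributed 0.397 ± 0.0278% of it in the controls and 0.85 ± 0.196% with ppk1. SPRY2 gave 60.7 ± 1.68% and 61.5 ± 1.36%.

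Among the SPRED transcripts, SPRED1 rose and SPRED2 narrowly missed the threshold. SPRED1 (ENSG00000166068, chromosome 15), the gene mutated in Legius syndrome, was at 14.9, 15.3 and 13.2 CPM in control libraries B, C and D and at 18.4, 18.7 and 18.5 CPM with ppk1. The ppk1 libraries were nearly equal to each other and all above the controls. The means were 14.5 ± 1.11 and 18.5 ± 0.173 CPM (n = 3 libraries per group), a fold of 1.28 (log2 0.36, SE 0.09, 95% interval 0.18 to 0.53, edgeR adjusted p = 0.00421). The pair values were 0.3, 0.29 and 0.48. The adjusted p was 0.0446 without the block. Leaving out replicate C gave 0.101, where the log2 fold change was 0.39.

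SPRED2 (ENSG00000198369, chromosome 2) was at 22.4, 22.5 and 20.2 CPM in the controls and at 25.4, 26.7 and 24.4 CPM with ppk1, again without overlap. Its means were 21.7 ± 1.3 and 25.5 ± 1.15 CPM (n = 3 libraries per group). The log2 fold change of 0.23 (SE 0.08, 95% interval 0.07 to 0.39) had an edgeR adjusted p of 0.0539, and the pair values were 0.18, 0.25 and 0.27. It was not called under any of the 11 alternatives.

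SPRED3 (ENSG00000188766, chromosome 19), the least abundant SPRED, was at 3.88, 3.59 and 2.59 CPM in control libraries B, C and D and at 3.02, 3.11 and 3.78 CPM with ppk1. It was lower with ppk1 in pairs B and C and higher in pair D, so the direction was not shared. The log2 fold change was -0.04 (SE 0.14, 95% interval -0.33 to 0.25, edgeR adjusted p = 0.907). The summed SPRED level was 6.53 ± 0.497 CPM per kilobase in the controls and 7.76 ± 0.195 with ppk1, of which SPRED2 held 64.5 ± 1.08% and 63.8 ± 1.44% (mean ± SD, n = 3).

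**Figure D2:**
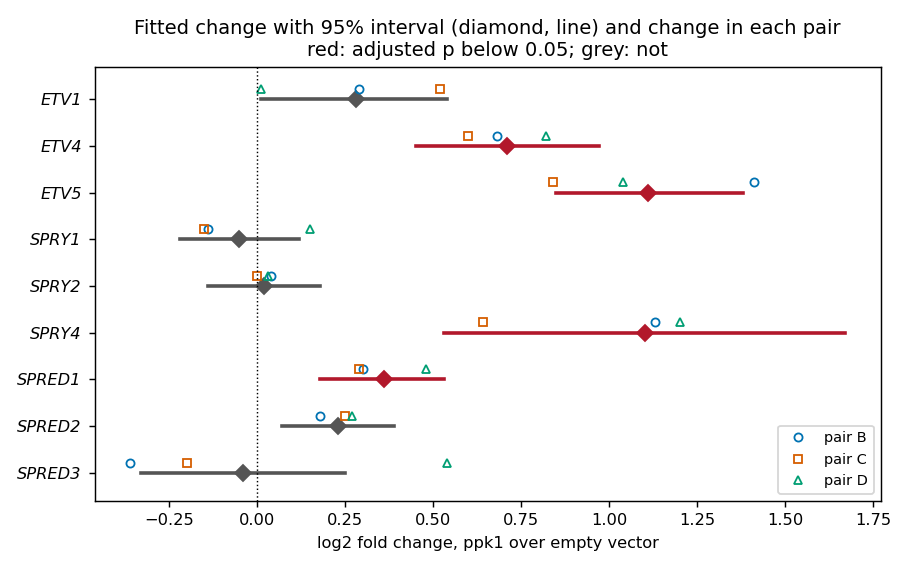
Log2 fold change of ppk1 over empty vector (x axis) for each transcript. Diamonds and lines are the fitted change and its 95% interval, in red where the adjusted p was below 0.05, and open symbols are the changes in pairs B, C and D. The intervals of ETV4, ETV5, SPRY4 and SPRED1 lie furthest from 0, and pair C gave the smallest change of ETV4, ETV5 and SPRY4.

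The order of the levels, in mean CPM per kilobase of exon in the controls, was SPRY2 (7.72), SPRY1 (4.96), SPRED2 (4.21), SPRED1 (1.75), ETV4 (0.789), SPRED3 (0.572), ETV5 (0.433), ETV1 (0.341) and SPRY4 (0.0505). Ranges over the 3 libraries overlapped between the neighbours ETV4 and SPRED3, between SPRED3 and ETV5, and between ETV5 and ETV1, and did not overlap between the other neighbours. With ppk1, ETV5 reached 0.93 and stood above SPRED3 at 0.563, with no overlap, since the lowest ETV5 library had 0.855 and the highest SPRED3 library 0.644. SPRED2 (4.95) and SPRY1 (4.8) then overlapped, while ETV4 reached 1.3 and SPRY4 remained lowest at 0.109. The transcripts with the largest folds, ETV5 and SPRY4, were thus among the 3 least abundant in the controls.

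**Figure D3:**
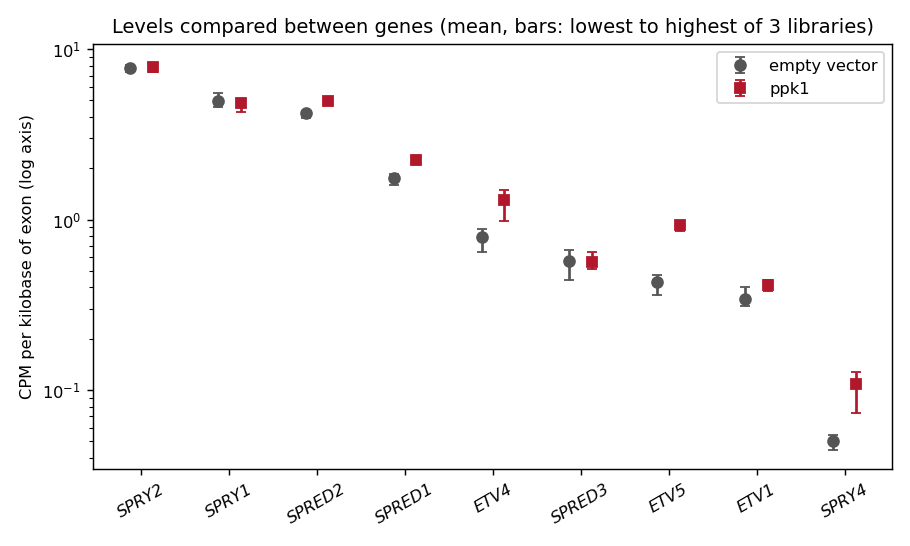
Level per kilobase of exon (y axis, log scale) for each transcript, ordered by the control mean, with grey circles for the empty vector and red squares for ppk1. Bars run from the lowest to the highest of 3 libraries. Levels span from 0.0505 for SPRY4 to 7.72 for SPRY2 in the controls, and ETV5 moves above SPRED3 with ppk1.

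The rest of the pathway was followed in 9 lists with 154 further genes, of which 130 were tested. Of these, 14 changed, 6 higher and 8 lower. The 14 were 10.8% of those tested, close to the 9.08% of all tested genes, and the median log2 fold change was 0.01, the same as over all genes. The number was 4 without the block, where 2.4% of all tested genes were called, 7 in DESeq2 (4.77%) and 3 without replicate C (2.06%).

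No FGF ligand was called among the 12 tested of 22 (1 at an unadjusted p below 0.05 by edgeR, 0 called by DESeq2 or limma voom). Of the 19 tested receptors and co-receptors, 2 fell and 0 rose (7 at an unadjusted p below 0.05 by edgeR). FGFR3, a receptor for FGF ligands, fell to 51 ± 2.63 CPM from 65.6 ± 5.24 CPM in the controls (log2 -0.36, SE 0.08, edgeR adjusted p = 0.00109, but 0.305 without replicate C). With a mean of only 17.7 counts, PDGFRB, a receptor for platelet-derived growth factor, was at 0.503 ± 0.0798 CPM in the controls and fell to 0.237 ± 0.0274 CPM (log2 -1.07, SE 0.32, edgeR adjusted p = 0.0268). Its call was lost without the block (0.0646) and without any 1 replicate (0.0718 to 0.195), and DESeq2 gave it no adjusted p. The transcripts of FGFR1, FGFR2 and FGFR4 had log2 fold changes of 0.1, -0.08 and -0.02 and did not pass.

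Among the 14 adaptors and exchange factors (4 at an unadjusted p below 0.05 by edgeR), SHC4 was the 1 that changed. It encodes a member of the SHC adaptor family, had a mean of 35.7 counts and fell by 0.97 on the log2 scale (SE 0.24, edgeR adjusted p = 0.00563). Its groups overlapped, and the call was lost without the block (0.106), in DESeq2 (0.159) and without replicate C (0.162). No transcript was called among the 15 RAS proteins and RAS GTPase activators or among the 14 kinases and scaffolds from RAF to RSK. In both lists edgeR gave 0 at an unadjusted p below 0.05, and DESeq2 and limma voom called 0. Log2 fold changes ran from -0.25 to 0.12 in the former and from -0.11 to 0.15 in the latter. NF1, the RAS inactivator that SPRED proteins recruit, had a fitted log2 change of 0.04 (SE 0.07).

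Of 17 other tested genes used as readouts or feedback of ERK output, 4 rose and 1 fell, with a list median of -0.01. By edgeR, 8 of them had an unadjusted p below 0.05. The phosphatase gene DUSP6, whose product inactivates ERK, was at 0.776, 0.677 and 0.709 CPM in control libraries B, C and D and at 1.38, 0.959 and 1.12 CPM with ppk1. Its groups did not overlap, and its log2 fold change was 0.68 (SE 0.22, edgeR adjusted p = 0.0368). The annotated antisense gene AC024909.2 on the opposite strand overlaps 40.5% of its exonic bases, so its counts are uncertain if the counting ignored the strand. The phosphatase genes DUSP5 (0.45, adjusted p = 0.0156) and DUSP7 (0.24, adjusted p = 0.0285) rose as well. EGR1, an early growth response factor, had the largest rise of the list, at 1.19 (SE 0.09, adjusted p = 1.4e-14).

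These phosphatase calls were less firm than that of EGR1. Without the block the adjusted p was 0.1 for DUSP6, 0.088 for DUSP5 and 0.0925 for DUSP7, and without 1 replicate it ran from 0.0888 to 0.189, from 0.0502 to 0.105 and from 0.0273 to 0.569. DESeq2 called none of the 3 (0.342, 0.167 and 0.0735 for DUSP6, DUSP5 and DUSP7), and upper-quartile scaling did not call DUSP6 (0.0653) or DUSP7 (0.0563). FLRT3, which encodes a membrane protein that binds FGF receptors, fell to 4.29 ± 0.338 CPM from 7.26 ± 2.03 CPM in the controls ( log2 -0.72, SE 0.12, edgeR adjusted p = 2.9e-05). It stayed called without the block (0.0437) and without each replicate (at most 0.00118). DUSP4 (0.3), CCND1 (0.17), EPHA2 (-0.1), EPHA4 (-0.17) and PHLDA1 (-0.09, as log2 fold changes), which are used with members of the set in ERK signatures, did not pass. SPRY3, the remaining Sprouty gene, had a log2 fold change of -0.04.

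Among 17 tested ETS genes outside the PEA3 subfamily, 1 rose and 2 fell (4 at an unadjusted p below 0.05 by edgeR). ETV7, which encodes an ETS repressor, had 52, 61 and 55 counts in control libraries B, C and D and 8 in each ppk1 library. That is a fall from 1.24 ± 0.218 to 0.159 ± 0.0364 CPM (n = 3 libraries per group; log2 -2.95, SE 0.29, edgeR adjusted p = 2.2e-10), and it stayed called without the block (2.3e-04) and without each replicate. DESeq2 gave it no adjusted p. ELK1 (0.28, adjusted p = 0.0127) and ELK4 (-0.28, adjusted p = 0.0142), which encode partners of the serum response factor, moved in opposite directions. ELK4 also shares 3.48% of its exonic bases with MFSD4A on the opposite strand. Neither call held without the block (0.101 and 0.301) or without replicate C (0.605 and 0.67).

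Of the 15 reported regulators and partners of the set, 1 rose and 1 fell (6 at an unadjusted p below 0.05 by edgeR). CIC, which represses PEA3 genes when ERK is inactive, was at 71.6, 70.8 and 51.1 CPM in control libraries B, C and D and at 75.4, 97.1 and 80.2 CPM with ppk1. Control library D was low and ppk1 library B was only slightly above control B, so the pair values were 0.07, 0.46 and 0.65 on the log2 scale. The fitted log2 fold change was 0.39 (SE 0.08, edgeR adjusted p = 9.2e-04), and the call was lost without replicate C (0.0977) and without the block (0.132). DET1, a component of a ubiquitin ligase complex that targets PEA3 factors, fell by 0.27 on the log2 scale (SE 0.08, adjusted p = 0.0257). Its call was lost without the block (0.088), in DESeq2 (0.0972), without replicate C (0.345) and without replicate D (0.0633), and 36% of its exonic bases belong also to another annotated gene on the same strand. COP1, which encodes the ligase's substrate receptor, had a log2 fold change of 0.03.

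Of 12 reported PEA3 targets, 8 were tested (3 at an unadjusted p below 0.05 by edgeR), and 1, CXCR4, changed. This chemokine receptor transcript fell to 16.2 ± 3.73 CPM from 23.3 ± 2.57 CPM in the controls ( log2 -0.54, SE 0.09, edgeR adjusted p = 2.1e-05), and its call was lost without replicate C (0.0837) and without the block (0.0752). The matrix metalloproteinase gene MMP14 was at a log2 fold change of 0.37 (adjusted p = 0.0642), and MMP1, MMP7, MMP9 and MMP13 had too few counts to be tested.

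**Figure D4:**
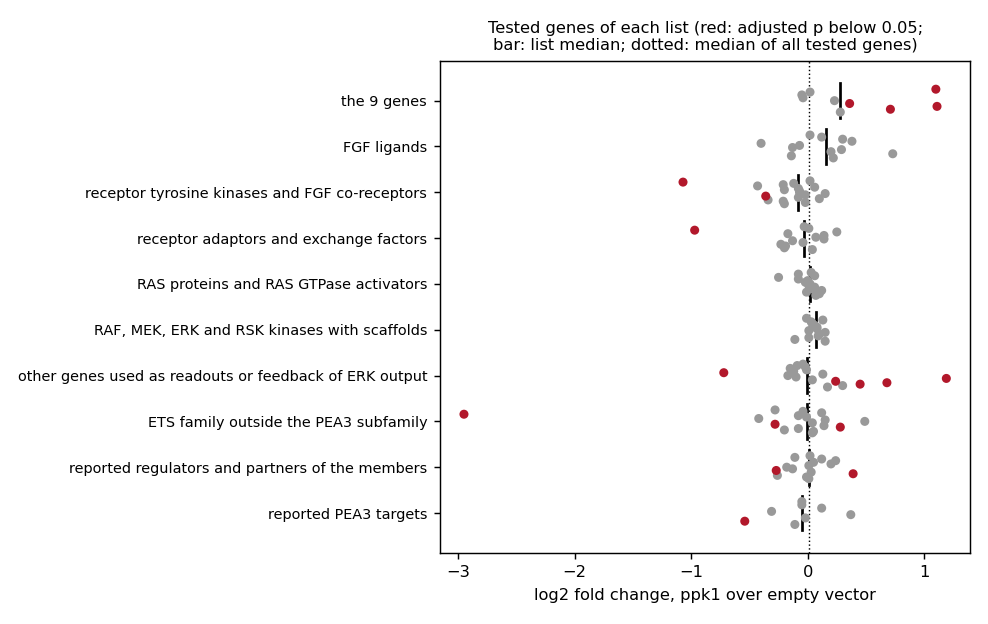
Log2 fold change of ppk1 over empty vector (x axis) for the tested genes of each list (rows), in red where the adjusted p was below 0.05. Black bars are list medians and the dotted line is the median of all tested genes, 0.01. The 9 transcripts of the set have a median of 0.28, the FGF ligand, RAS and kinase lists hold no red point, and ETV7 lies at -2.95.

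The genes whose log2 CPM followed each changed transcript most closely over the 6 libraries were sought among 12245 genes (12244 for SPRED1) whose mean count reached 200. The libraries fall into 2 groups of matched replicates, and how far the group difference or the replicate letters enter this likeness was not tested. The genes named are the highest of all these candidates over only 6 libraries. How many correlations as high would arise by chance was not tested either, so they are descriptions only. ETV5 was followed most closely by SHF, OR7E38P and ZCCHC12 (Pearson r 0.986, 0.985 and 0.981). The nearest to ETV4 were DMKN, FICD and RPL3 (0.988, 0.986 and 0.982), and the nearest to SPRY4 were TIMP1, DMKN and FICD (0.988, 0.972 and 0.964). SPRED1 was nearest to FJX1, TRIM71 and OLIG2 (0.993, 0.992 and 0.99). Of these 10 genes, ZCCHC12 (log2 fold change 0.56), OLIG2 (0.39), TRIM71 (0.37) and TIMP1 (0.25) were themselves called higher, with edgeR adjusted p-values of 7.2e-07, 0.00852, 0.00117 and 0.0221. The other 6 were not called, with log2 fold changes from 0.13 (RPL3) to 0.27 (SHF).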

How the data were processed

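Messenger RNA from 6 HEK293T libraries was enriched by poly(A) selection and made into directional libraries, per the labels' protocols. The authors deposited 1 table of raw counts per Ensembl gene. The submitters' processing notes name bcl2fastq 2.20, Trimmomatic, STAR, HTSeq, edgeR, DESeq, Cufflinks and Cuffdiff without their roles. The genome build, the annotation, the strand setting and the handling of shared reads are not given in the sources used here, so no positions are given for the counted genes. The promoter positions printed are those of the RefSeq sequences (GRCh38.p14). Chromosomes, exon lengths and overlaps come from GENCODE release 29, matched by Ensembl identifier. An exon length covers all annotated exons of a gene, whichever isoforms were expressed, so comparisons per kilobase between genes are approximate.

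Counts were filtered with filterByExpr (minimum count 10), scaled by TMM and tested over all genes in R 4.3.3 by edgeR 4.0.16 (quasi-likelihood), with the replicate letter as a block and Benjamini-Hochberg adjustment at 0.05. The code was tested on simulated data. The pairing comes from the series' design text. Across genes, libraries sharing a letter deviated from the mean of their group with a correlation of 0.109 (B), 0.135 (C) and 0.0476 (D), against -0.12 to -0.00506 between letters. Deviations from a mean of 3 libraries sum to 0, so positive values within letters go with negative ones between letters. The contrast is therefore partly built in and is not a test of the pairing. Log2 CPM used a prior count of 2. Standard errors were taken as the size of the log2 fold change over the root of F. A gene without counts could still be at up to 3 counts, which is 0.0447 to 0.0734 CPM depending on the library.

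The 9 genes and all lists were chosen with earlier results of these data known. The rule names all 9 genes, up to 6 called genes of each list, genes that overlap 1 of the 9, and the 3 genes most like each called one. Genes of a list named without a call were chosen after their values were seen. Alternatives were no block, RLE and upper-quartile scaling, no filter, a mean of at least 50 counts, robust dispersion, DESeq2 1.42.0, limma voom 3.58.1 and leaving out each replicate letter.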

Additional observations from a re-analysis of the deposited data

How the results depend on the processing

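Across the 11 alternatives ETV4 and ETV5 kept direction and call (log2 fold changes 0.63 to 0.75 and 0.95 to 1.25), and ETV1 and SPRED2 kept direction without a call. Without the replicate block SPRY4 had a log2 fold change of 1.11 and lost its call (adjusted p 0.0625), and the block changed no other call among the 9 genes. SPRY4 was not tested with a mean of at least 50 counts, because it has fewer. Across the fits without 1 replicate, SPRY4 ran from 1.00 to 1.25 and SPRED1 from 0.28 to 0.39, and the calls were lost without B and D for SPRY4 and without C for SPRED1. Signs near 0 changed. Across the same fits SPRY1 ran from -0.17 to 0.0049, SPRY2 from -0.0035 to 0.03 and SPRED3 from -0.31 to 0.15. With upper-quartile scaling SPRY2 was at -0.0018. The median of all tested genes was 0.01, 0.01 and -0.01 with TMM, RLE and upper-quartile scaling.

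Of the 9 genes, 3 or 4 were called under each alternative, all higher. Over all tested genes, calls numbered 1777 (791 higher, 986 lower). Without the block 470 were called (89 higher, 381 lower). DESeq2 called 756 (332 higher, 424 lower), upper-quartile scaling called 422 higher and 933 lower, and fits without 1 replicate called from 406 (without C) to 2435 (without B), with 82 to 1263 higher and 324 to 1172 lower. Of the 154 genes in the other lists, 14 were called (6 higher, 8 lower). This became 4 without the block (1 higher, 3 lower), 7 in DESeq2 (3 higher, 4 lower), 5 lower with a mean of at least 50 counts, where fewer genes were tested, and from 3 to 18 without 1 replicate (1 to 6 higher, 2 to 12 lower). The cause of these differences was not tested. The means of SPRY4, ETV7, PDGFRB, SHC4, DUSP6 and ALB were below 50 counts, and the part of depth in their calls was not tested.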
